A study of Homo sapiens with 36 samples.

Results

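The 77 mRNAs described here encode mitochondrial ribosomal proteins, and they were followed in HCT-116 cells before and after a pulse of 5-fluorouracil (5-FU). They are the protein-coding rows whose symbol is MRPL or MRPS followed by a number and an optional letter A to C, and they make up 77 of the 15891 genes in the table, 48 with a large-subunit symbol (MRPL) and 29 with a small-subunit symbol (MRPS). The rule used names and no measured values, but the set was chosen with earlier results of these data known. HCT-116 is a human colorectal carcinoma line, and 5-FU is a pyrimidine analogue that inhibits thymidylate synthase and is incorporated into RNA and DNA. All groups are the same line, and 5-FU was given at 10 µM over 48 h. The treated groups are those of D1, D2, D7, D14 and D16, and the group they are set against is that of D0, before the drug was added. The 48 h are given for D2, D7, D14 and D16, and no exposure time is given for D1. The sources used here do not say what happened between D14 and D16. At each collection 2 kinds of RNA were sequenced. The heavy pool is the part of a sucrose gradient with mRNA carrying more than 3 ribosomes, and the cytoplasmic RNA is the RNA of the lysate from which nuclei and mitochondria had been pelleted. Each of the 12 groups had 3 libraries, A, B and C, letters that the labels call batches, which gives 36 libraries. The cells are 1 established line, nothing in the labels says how separate the letters' cultures were, and p-values may therefore measure a spread that is partly technical. No untreated culture of the later days was analysed here, so drug, recovery and time in culture cannot be told apart, and in bulk RNA fewer cells of a kind and less RNA per cell cannot be told apart either.

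Mitochondria keep their own ribosome, which translates the few mRNAs encoded by mitochondrial DNA, all of them for subunits of the respiratory chain and the ATP synthase. Its rRNAs come from mitochondrial DNA, whereas all of its proteins are encoded in the nucleus, translated by cytosolic ribosomes and imported, so the amounts of these mRNAs on cytosolic polysomes bear on the supply of the organelle's ribosome. The large subunit joins amino acids and the small subunit decodes the mRNA. Symbols do not follow the structure in every case. MRPS30 and MRPS18A are proteins of the large subunit, MRPS36 is a component of the 2-oxoglutarate dehydrogenase complex, and DAP3, PTCD3, CHCHD1, AURKAIP1 and GADD45GIP1 are proteins of the mitochondrial ribosome without an MRP symbol. Counts by subunit below follow the symbols. The coding sequences were short, with a median of 196 codons (65 to 439) against 461 for the 12399 protein-coding genes of the table, and the large- and small-subunit sets had like lengths (medians 195 and 196 codons).

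Estimated from the step between low values, totals over the listed genes were 46.1 to 55.7 megareads in the heavy pool (median 51.7) and 41.0 to 103.6 megareads in the cytoplasm (median 48.0). The 77 members took 0.597 to 0.835 percent of the summed values in the heavy pool and 0.446 to 0.757 percent in the cytoplasm, and the weakest member of any library still rested on an estimated 98 reads. Values are normalised counts, the authors' read counts divided by a size factor per library, and differences are on the log2(value + 1) scale. Cytoplasmic libraries scattered more than heavy ones: the SD of genes around their group mean was 0.16 to 0.25 in heavy libraries and 0.24 to 0.66 in cytoplasmic ones. The cytoplasmic libraries D2 A and D7 A stood apart, with members a median of 0.52 and 0.45 above their group means, and cytosolic ribosomal protein mRNAs took 18.0 and 23.4 percent of them (10.8 to 16.5 percent in the other cytoplasmic libraries). In the cytoplasmic libraries D14 B and D16 B, deviations from the group mean followed GC content over genes (r = 0.74 and 0.70). Results in the cytoplasm are therefore given with and without these libraries or letters where they change. CDKN1A, the p53 target that encodes p21, was higher on all 5 later days in both fractions (log2 difference 4.70 at D2 and 0.82 at D16 in the heavy pool), and TYMS, the target of 5-FU, was lower on D2 in both (-1.35 in the heavy pool and -1.14 in the cytoplasm). EPCAM, CDH1, KRT8, KRT18 and KRT19, the epithelial genes used as a check of the line, were all present. Of the markers of other cell types COL1A1 and HBA1 had values, up to 865 and 415 normalised counts, and PTPRC, CD3E, MS4A1, CD68, COL3A1, PECAM1, VWF and ALB were not analysed here.

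Before the drug, the most abundant member per kilobase of exon in the cytoplasm was MRPS34, a small-subunit protein needed for the stability of the small rRNA, at 14146 ± 857 normalised counts per kb (SD, n = 3). MRPL51 (6822 ± 794), MRPS26 (6392 ± 752) and MRPL18 (6242 ± 121) came next and did not differ from each other beyond their spread, ahead of MRPL3 (4760.1 ± 351). The lowest were MRPL38 (76.2 ± 7.82), MRPL46 (119.6 ± 15.2), MRPS17 (153 ± 17.6), MRPS24 (161 ± 19.2) and MRPL42 (289.9 ± 28.6). The highest level per kb was 186-fold the lowest. Part of this order rests on the length used: with the length of the principal GENCODE transcript in place of all exons, MRPS34 and MRPL38 kept the first and the last rank, while MRPL46 moved to rank 65 and MRPS26 to rank 12 (Spearman rho of the 2 orders 0.83 over 77 genes). Of the 77 members, 40 share exon bases with another gene, and their reads could be split or lost in counting. Of those named below, MRPL12 shares 68.2 percent of its exon bases with another gene on the same strand, MRPL38 37.5 percent, MRPS24 23.2 percent, MRPS17 21.8 percent and MRPL33 21.1 percent, the last with BABAM2. MRPS18A (47.0 percent), MRPS18C (40.2 percent), MRPL43 (32.8 percent) and MRPL51 (31.3 percent) overlap a gene on the opposite strand. Whether the counting used strand is not given in the sources used here, so the levels of these 9 members are uncertain. Overlaps touch other members too, among them MRPS28 (35.8 percent, same strand) and MRPS25 (22.2 percent, opposite strand).

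The first comparison asks which members sat on heavy polysomes before treatment. At D0, 18 of 77 members were higher in the heavy pool than in the cytoplasm and 20 were lower (limma, adjusted p under 0.05), against 26.7 and 19.1 percent of all genes, and the median difference was -0.04 for members and 0.14 for all genes. The split followed coding length. Of the 22 members of up to 150 codons, 14 were lower in the heavy pool and 0 higher (median -0.74), and of the 26 members over 250 codons, 14 were higher and 1 lower (median 0.48). Over the 77 genes, Spearman's rho between codons and the difference was 0.71, with 0.71, 0.66 and 0.72 in letters A, B and C and 0.50 over all protein-coding genes. The order by length was thus not the members' alone, and shares of other genes of like length are not given here. Equal-total scaling, described below, gave 17 higher and 28 lower, and without letter C the counts were 8 higher and 14 lower. The correlations are descriptions across genes, which share the libraries and are no independent replicates, and the length classes were set after the values had been seen. A short reading frame has room for fewer ribosomes than a long one, and the pool was cut at more than 3 ribosomes. Whether that sets the order was not tested.

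MRPL33, the shortest member, had the lowest ratio of heavy to cytoplasmic RNA. It had 899, 874 and 827 normalised counts in the heavy pool (A, B and C), against 3021, 2548 and 2323 in the cytoplasm (log2 difference -1.59, SE 0.27, adjusted p = 2.67e-05). Its complete reading frame, from the GENCODE 29 transcript of the gene at chr2:27771717-27988087 on the plus strand (GRCh38), is shown because it is the shortest of the members. The capitals mark the start and the stop codon, and 65 codons lie from the start codon up to the stop codon.
MRPL33: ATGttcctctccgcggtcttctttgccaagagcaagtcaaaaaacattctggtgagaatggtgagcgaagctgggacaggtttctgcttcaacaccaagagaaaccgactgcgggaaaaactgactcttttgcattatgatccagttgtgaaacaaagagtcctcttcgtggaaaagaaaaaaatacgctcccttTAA
MRPS24 (110.4, 143 and 181 in the heavy pool against 466, 426 and 367 in the cytoplasm) and MRPS15 (2319, 2406 and 2375 against 7412, 6713 and 6240.3) followed, with log2 differences of -1.55 and -1.52. MRPS15, a small-subunit protein with a bacterial counterpart, has 257 codons and was the only member over 250 codons that was lower in the heavy pool. At the other end, MRPS27, a small-subunit protein of 414 codons from the pentatricopeptide repeat family, had 12845, 12972 and 13744 in the heavy pool, against 6531, 6522 and 6783 in the cytoplasm (log2 difference 1.00, SE 0.12, adjusted p = 3.75e-07). MRPL44 and MRPL46, large-subunit proteins of 332 and 279 codons, were higher in the heavy pool by 0.97 and 0.87. For each of these 6 members the 3 heavy and the 3 cytoplasmic values did not overlap.

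The next comparisons ask how the heavy pool changed after 5-FU. Every one of the 77 members changed on at least 1 day (limma F test over the 5 contrasts, adjusted p under 0.05), against a background of 95.1 percent of all genes, so this count says little about the members. They did not move as a block. At D1, 5 members were higher and 37 lower than at D0 (20.1 and 26.9 percent of all genes). At D2, 15 were higher and 42 lower (30.4 and 34.5 percent). At D7, 26 were higher and 28 lower (27 and 36.5 percent). At D14, 20 were higher and 40 lower (34.4 and 37.6 percent), and at D16, 17 and 51 (36.2 and 36.6 percent). The 5 contrasts share the D0 libraries. Split by subunit, at D14 12 of 48 MRPL members were higher and 26 lower, and 8 of 29 MRPS members were higher and 14 lower.

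How many members count as higher or lower depended on the scaling. With libraries scaled to equal totals instead of the authors' size factors, the median of all genes in the heavy pool shifted to 0.13, 0.35, 0.18, 0.30 and 0.44 at D1, D2, D7, D14 and D16, and the members' calls became 14 higher and 15 lower, 33 higher and 24 lower, 41 higher and 10 lower, 32 higher and 22 lower, and 24 higher and 29 lower. Relative to the median of all genes, the members' median was -0.16, -0.29, 0.06, -0.28 and -0.52 on these days with the deposited size factors, and -0.15, -0.29, 0.065, -0.28 and -0.52 with equal totals. The members thus lay below the middle of all genes on D1, D2, D14 and D16 and slightly above it on D7. Scaling multiplies all genes of a library alike, so this relative measure could hardly differ between the 2 scalings, and its agreement is no check. Directions below are relative to the deposited size factors.

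**Figure D1:**
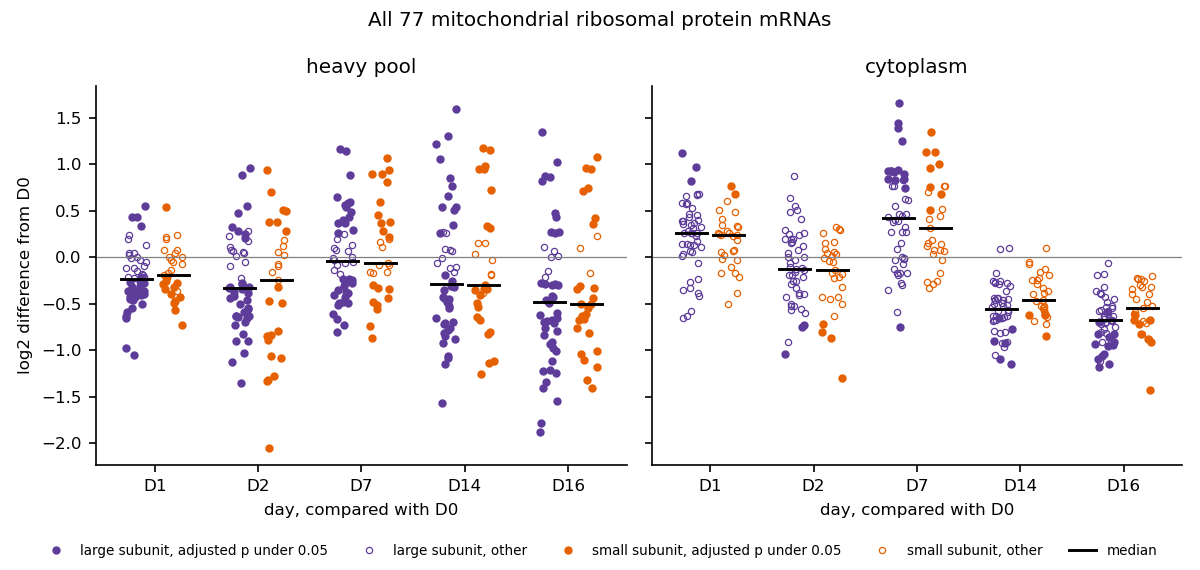
Each point is 1 of the 77 members: the log2 difference of each day from D0 in the heavy pool (left) and the cytoplasm (right), with purple for the large and orange for the small subunit, filled where the adjusted p was under 0.05, and a black line at the median. In the heavy pool the members spread to both sides of 0, from -1.57 (MRPL38) to 1.59 (MRPL33) at D14, while in the cytoplasm the medians were above 0 at D7 and below 0 at D14 and D16; under equal-total scaling the heavy-pool points shift upward and the call counts change as the text gives.

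Of the 20 members that rose in the heavy pool by D14, 15 had up to 150 codons. MRPL33 had 899, 874 and 827 at D0, 1332, 1061 and 1124 at D1, 1687, 1515 and 1608 at D2, 1944, 2098 and 1710.4 at D7, 2331, 2836 and 2699.9 at D14 and 2174, 1812 and 2715 at D16 in letters A, B and C. All 15 later values lay above the 3 values of D0, and at D14 the level was 3.01-fold that of D0 (log2 difference 1.59, SE 0.12, adjusted p = 1.69e-10). MRPL36, a large-subunit protein of 103 codons with a bacterial counterpart, had 3317, 3728 and 3810.1 at D14 against 1435, 1387 and 1583 at D0 (log2 difference 1.30, SE 0.11, adjusted p = 3.19e-10). At D1 it had 1277, 1335 and 1532, which overlaps D0. MRPL14 (145 codons), a conserved protein of the subunit interface, reached 4152, 4519 and 4503 at D14 against 1906, 1828 and 1909 at D0 (log2 difference 1.22), and MRPS6 (125 codons) 1560.2, 1699 and 1876 against 742, 808 and 718 (1.18). MRPS33, at 106 codons, had 2939, 3240.4 and 3233 at D7 against 1451, 1522 and 1513 at D0 (1.07). For these 4 genes, too, the D0 values lay below all values of the later day named. MRPL42 and MRPS36 had the largest rises called at D1, with log2 differences of 0.55 and 0.54. MRPL42 had 4156, 3528 and 3819 at D2 against 2005, 1985 and 1904 at D0 (0.96).

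Of the 40 members that fell by D14, 24 had over 250 codons and 1 had up to 150. MRPL38, a large-subunit protein of 380 codons without a bacterial counterpart, had 467, 494 and 531 at D0, 215, 279.6 and 263 at D1, 237, 304 and 257 at D2, 257, 309 and 288 at D7, 180.0, 176 and 147 at D14 and 155, 118 and 133 at D16. The difference from D0 was -1.57 at D14 and -1.87 at D16 (adjusted p = 9.78e-11), and no later library reached the lowest of D0. MRPL46 had 439, 429.6 and 358 at D16 against 1321, 1350.4 and 1536 at D0 (log2 difference -1.78, SE 0.11, adjusted p = 2.01e-12). MRPS27 had 5431, 5268 and 5913 at D14 against 12845, 12972 and 13744 at D0 (-1.25), and MRPL2 (305 codons), a conserved rRNA-binding protein next to the catalytic centre, had 661, 580.0 and 512 at D16 against 1606, 1676 and 1823 (-1.55). In all 4 genes the values of D0 lay above those of the day compared.

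**Figure D2:**
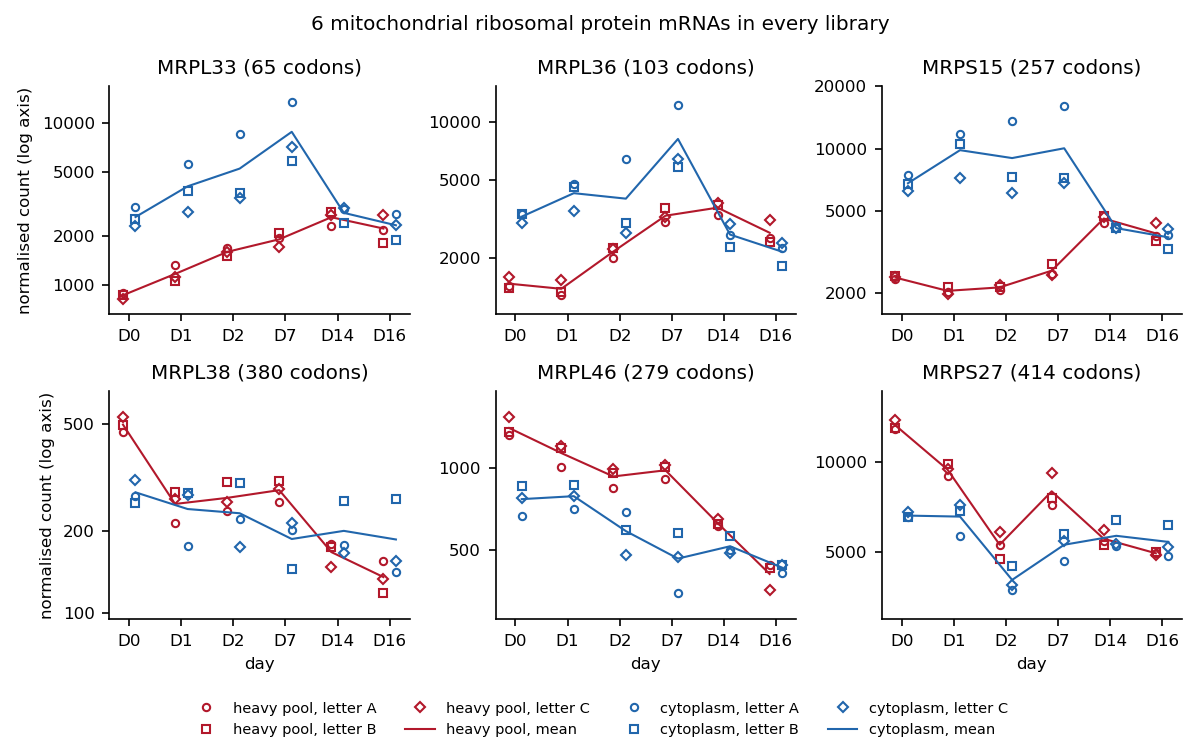
Normalised counts (log axis, a scale of its own in each panel) of 6 members on the 6 days in the heavy pool (red) and the cytoplasm (blue), with a symbol per letter and a line through the means of the 3 libraries. In the top row (MRPL33, MRPL36, MRPS15) the heavy pool lies below the cytoplasm at D0, and in the bottom row (MRPL38, MRPL46, MRPS27) it lies above it. At D14 the 6 differences between the fractions were -0.24 (MRPL38) to 0.47 (MRPL36).

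The largest fall from D0 of any member in the heavy pool was at D2. MRPS31, a small-subunit protein of 395 codons, had 405, 354 and 379 at D2 against 1505, 1604 and 1598 at D0 in the heavy pool (log2 difference -2.05, SE 0.12, adjusted p = 7.92e-13), and then 768, 886 and 939 at D7 and 1118, 1230.1 and 1002 at D14. At D1 it had 1392, 1803 and 1558, which overlaps D0. The cytoplasm showed the fall as well, with 443, 421 and 509.7 at D2 against 1064, 1342 and 996 at D0 (-1.30), although that call was lost without letter A or letter C. MRPL24, a large-subunit protein whose bacterial counterpart starts the assembly of that subunit, had 2654, 2907 and 3258 at D2 against 6952, 7845 and 7667 at D0 (-1.35) and was already lower at D1 (-1.05). MRPS18B had 4802, 4632 and 5531 against 11468, 12512 and 13541 (-1.33). In the step to D2, 17 of 77 members were higher than at D1 and 25 lower (26.5 and 24.8 percent of all genes). In the step to D7, 51 of 77 members were higher than at D2 and 3 lower, when 28.7 and 28.3 percent of all genes were. In the step to D14, 12 were higher than at D7 and 38 lower (29.5 and 28.9 percent). In the step from D14 to D16, 0 members were higher and 31 lower, against 8.68 and 10.2 percent of all genes. Equal-total scaling gave 28 higher and 13 lower for the step to D2, 43 higher and 6 lower for that to D7 and 20 lower for that to D16. Without letter B the step to D7 gave 32 higher and 3 lower, and the step to D16 gave 5 lower without letter A and 4 without letter B.

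Over all 77 members, Spearman's rho between codons and the heavy-pool difference from D0 was -0.45 at D1, -0.74 at D2, -0.71 at D7, -0.78 at D14 and -0.76 at D16, and within letters A, B and C it was -0.75, -0.77 and -0.80 at D14. Over all protein-coding genes it was 0.01, -0.14, -0.43, -0.44 and -0.33 on the same days, and over the 81 cytosolic ribosomal protein genes it was -0.72 at D14. These differences share the 3 heavy libraries of D0 with the comparison of the fractions at D0. GC content gave a rho of -0.01 with the members' difference at D14. Members of up to 150 codons had a median of 0.69 at D14, with 15 of 22 higher and 1 lower, while other protein-coding genes of that length had a median of 0.92, with 81.7 percent higher. Members of 151 to 250 codons had -0.30 (4 of 29 higher and 15 lower) against 0.38 for the others, 18.9 percent of which were lower. Members over 250 codons had -0.73 (1 of 26 higher and 24 lower) against -0.31 (51.2 percent lower). In each class the members' median was below that of other genes of like length at D14 and D16. Cytosolic ribosomal protein mRNAs of the same classes had medians of 1.08, 0.59 and 0.18 at D14. The earlier days had the same order. At D2, 12, 3 and 0 members of the short, middle and long class were higher and 2, 17 and 23 lower, and at D7 16, 10 and 0 were higher and 0, 10 and 18 lower. Shares of other genes of like length are not given for D2 and D7, so these counts do not set the members apart. These class values are descriptions without a test.

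**Figure D3:**
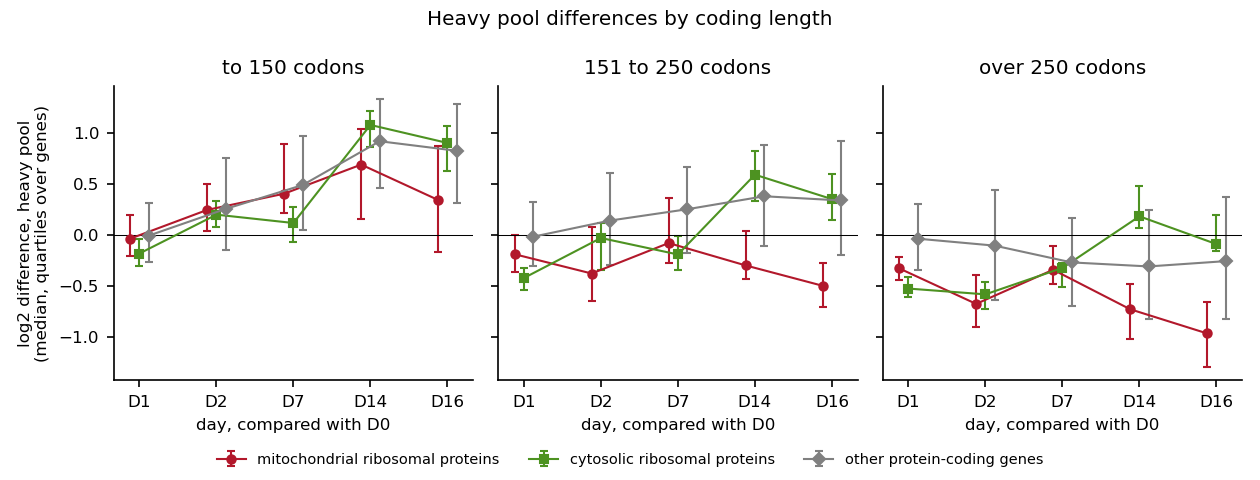
Median log2 difference of the heavy pool from D0 by day (points; bars are quartiles over genes, not replicate error) for mitochondrial ribosomal proteins (red), cytosolic ribosomal proteins (green) and other protein-coding genes (grey) in 3 classes of coding length. Members of up to 150 codons had medians of 0.69 at D14 and 0.34 at D16, against 0.92 and 0.83 for other genes of that length, and members of 151 to 250 and over 250 codons end at -0.50 and -0.97 at D16, against 0.34 and -0.26 for other genes; equal-total scaling raises all 3 lines of each panel together.

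Members that broke the order by length can be named. Of the 26 members over 250 codons, MRPS15 alone was higher in the heavy pool at D14 and D16: it had 4361, 4694 and 4677 at D14 against 2319, 2406 and 2375 at D0 (log2 difference 0.95, SE 0.09, adjusted p = 1.83e-09). Of the 22 members of up to 150 codons, MRPL51, which has 128 codons, alone was lower at D14 (-0.45), and at D16 MRPL27, MRPL52, MRPL55 and MRPS12 were lower as well, with log2 differences of -0.50, -0.29, -0.29 and -0.43. Under equal-total scaling the calls of MRPL51 on both days and of MRPL27 and MRPS12 were lost, and MRPL52 and MRPL55 had 0.13 each, in the other direction and not called. MRPL52 and MRPL55 also lost their calls without letter B. MRPS12, the homologue of the bacterial decoding-centre protein S12, had 3305, 3036 and 3472 at D16 against 4134, 4703 and 4427 at D0. MRPL52, MRPL55, MRPS11 and MRPL1 are named here or below after their values had been seen.

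By D14 the spread of the members between heavy and cytoplasmic RNA had narrowed. Over all genes, calls between fractions fell from 26.7 percent higher and 19.1 lower at D0 to 0.0881 and 1.15 percent at D14. The narrowing therefore does not set the members apart. Cytosolic ribosomal protein mRNAs took a mean of 6.27 percent of the heavy pool at D0 and 12.1 percent at D14. In the cytoplasm they took 11.8 and 12.5 percent. The part of this shift in the members' values was not tested. The difference between the 2 fractions ran from -1.59 to 1.00 over the 77 members at D0, with an interquartile range of 1.01, 1.08 at D1, 0.70 at D2, 0.82 at D7, 0.23 at D14 and 0.27 at D16. In single letters the interquartile range at D14 was 0.23, 0.57 and 0.25 (A, B and C), against 1.18, 0.92 and 1.04 at D0. The rho with codons was 0.71 at D0, 0.62 at D1, 0.40 at D2, 0.61 at D7, -0.007 at D14 and -0.19 at D16. At D1, 8 members were higher in the heavy pool and 41 lower (31.3 and 27 percent of all genes), at D2 9 and 24 (23.6 and 22.6 percent), and at D7 7 and 38 (30.2 and 26.4 percent). Equal-total scaling gave 21 higher and 29 lower at D1, 31 higher and 13 lower at D2 and 30 higher and 17 lower at D7, so which direction held more calls on D2 and D7 depended on the scaling. The counts of D2 and D7 also rest on the libraries that stood apart. The members' median difference in letters A, B and C was -0.75, -0.06 and 0.18 at D2 and -0.93, -0.14 and -0.22 at D7. Without letter A the counts were 8 higher and 12 lower at D2 and 6 higher and 21 lower at D7, and without only the cytoplasmic libraries D2 A and D7 A they were 14 higher and 17 lower and 9 higher and 27 lower. At D14 0 were higher and 1 lower (0.0881 and 1.15 percent), and at D16 0 and 0 (0.0126 and 0.837 percent). The counts at D14 and D16 were thus low over the whole table with the deposited size factors, and equal-total scaling gave 22 higher and 1 lower members at D14 and 6 higher at D16. The single call at D14 was MRPS24, with 99.2, 95.1 and 135 in the heavy pool against 263, 431 and 299 in the cytoplasm (-1.57), and without letter B no member was called.

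**Figure D4:**
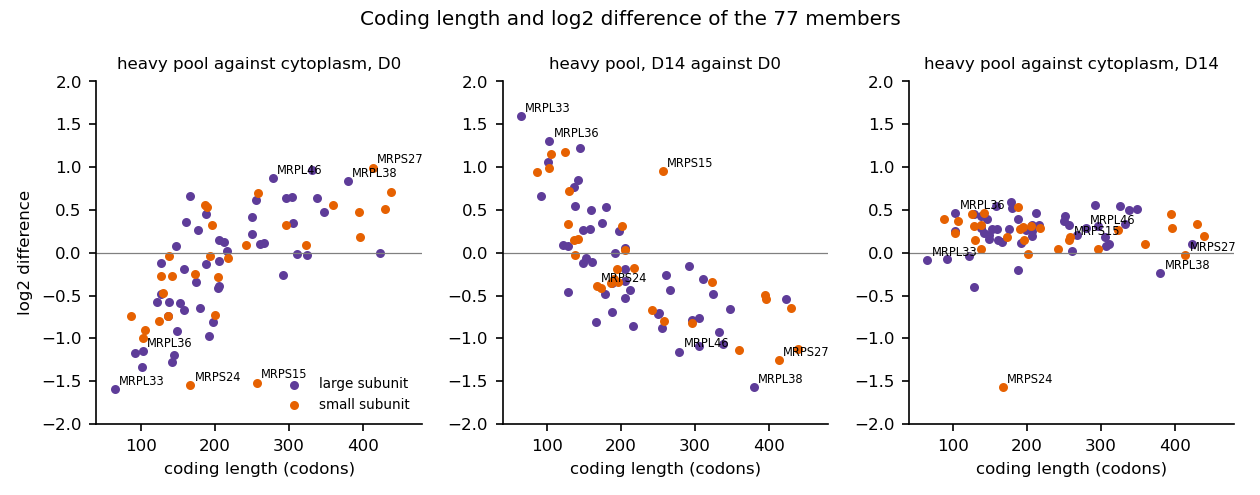
Coding length in codons against the log2 difference of the heavy pool from the cytoplasm at D0 (left), of the heavy pool at D14 from D0 (middle) and of the heavy pool from the cytoplasm at D14 (right) for the 77 members, purple for the large and orange for the small subunit. Of the 22 members of up to 150 codons, 14 were lower in the heavy pool at D0 and 15 were higher at D14 than at D0. Of the 26 over 250 codons, 14 were higher in the heavy pool at D0 and 24 were lower at D14 than at D0 (rho 0.71 and -0.78). Over all genes, 26.7 percent were higher and 19.1 percent lower in the heavy pool at D0, and 34.4 and 37.6 percent at D14 against D0. The text gives shares of other genes of like length at D14. The left and middle panels share the heavy libraries of D0, so their opposite slopes are not independent. At D14 all members but MRPS24 lie between -0.40 and 0.59. Over all genes, 0.0881 percent were higher and 1.15 percent lower in the heavy pool than in the cytoplasm on that day.

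Polysome association, the change of the heavy pool minus the change of the cytoplasm, tests the difference between the fractions directly. At D14, 21 members had risen in association and 5 had fallen, against 11.5 and 16.7 percent of all genes, with a median of 0.34 for members and -0.10 for all genes. At D16, 18 had risen and 10 had fallen (11.6 and 17.9 percent). Of the 21 rises at D14, 15 were in members of up to 150 codons and 1 in a member over 250 codons, MRPS15, which had the largest value (log2 difference 1.67, SE 0.33, adjusted p = 0.000827). MRPL36 (1.62) and MRPL14 (1.58) came next. MRPL42 led at D16 (1.73). Its GC content is low (38.4 percent), and its cytoplasmic RNA of D16 stood low in letter B, with 4034, 1488 and 4023 in A, B and C. Its rank thus rests in part on that library. The 5 falls at D14 were all in members over 250 codons, MRPL38 (-1.07), MRPS27 (-1.02), MRPL44 (-0.63), MRPL46 (-0.58) and MRPS30 (-0.51). Shares of other genes of like length are not given for association, so this split does not set the members apart. MRPS27 shows what the measure holds: in the heavy pool it fell to 5537 ± 335 at D14, against 13187 ± 486 at D0, while in the cytoplasm it had 5665 ± 644 at D14 and 6612 ± 149 at D0 (SD, n = 3 each), a difference that did not pass the test (-0.23, adjusted p = 0.4). Equal-total scaling gave 32 higher and 1 lower at D14 and 30 higher and 5 lower at D16. Without letter B the counts were 4 and 2 at D14 and 9 and 5 at D16, and without letter C 5 and 1 and 5 and 3. MRPL36 lost its call without letter B, MRPL42 without letter C, and the D14 calls of MRPL38 and MRPL44 were lost without letter B, without letter C and under equal-total scaling. MRPL46 lost its call without any 1 letter and under TMM and equal-total scaling, and MRPS30 without letter A, without letter C and under equal-total scaling.

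Early association calls were few. At D1, 4 members had fallen and 0 had risen (3.37 and 0.787 percent of all genes), at D2 1 and 0 (2.03 and 0.0378 percent), and at D7 1 and 0 (3.2 and 0.749 percent). MRPL37 (-0.96), MRPL28 (-0.94) and MRPS12 (-0.89) were the lowest called at D1, MRPS5 (-0.75) at D2 and MRPL45 (-0.71) at D7. All 5 calls were lost without letter A, without letter B, without letter C, and under equal-total scaling, which gave 0 and 0, 2 and 0, and 4 and 0 rises and falls on the 3 days. A block for the letter gave 8, 2 and 2 falls, and without the cytoplasmic libraries D2 A and D7 A there were 30 falls at D1. At D1 the members' association difference ran with GC content rather than length (rho -0.86 with GC content and -0.05 with codons, against -0.73 with GC content over all protein-coding genes). The part of library composition in this was not tested.

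In cytoplasmic RNA the members called on a given day moved, with 1 exception, in 1 direction. Over all days, 42 of 48 large-subunit and 25 of 29 small-subunit members changed (limma F test), against 61.5 percent of all genes. At D7, 22 members were higher and 1 lower than at D0 (18.3 and 15.7 percent of all genes), with a median of 0.41 for members and 0.01 for all genes. At D14, 0 were higher and 10 lower (7.75 and 5.05 percent; median -0.52), and at D16, 0 and 22 (9.47 and 7.26 percent; median -0.65). At D1, 5 were higher and 0 lower (10.9 and 7.09 percent), and at D2, 0 and 7 (14.2 and 10.6 percent). In the step to D2, 0 members were higher than at D1 and 7 lower (3.59 and 4.89 percent), and in the step to D7, 21 were higher than at D2 and 0 lower (9.48 and 11.8 percent). Between D7 and D14, 56 of 77 members were lower at D14 than at D7 and 0 higher, against 19.1 and 16.5 percent of all genes. From D14 to D16 limma called 0 members and 0 genes. Without letter A, B or C in turn, the step to D2 gave 12, 1 and 0 lower members, the step to D7 20, 8 and 0 higher ones, and the step to D14 34, 50 and 19 lower ones. Without the libraries D2 A and D7 A the 3 steps gave 32 lower, 30 higher and 46 lower, and equal-total scaling gave 34 lower in the last. A block for the letter gave 12 lower in the first and 34 higher and 1 lower in the second.

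The cytoplasmic counts against D0 also depend on single letters. Without letter A, B or C in turn, D7 gave 11, 16 and 1 higher members, D1 4, 0 and 0, D2 9, 5 and 0 lower members, D14 5, 2 and 0, and D16 16, 5 and 1. A block for the letter gave 8 higher at D1, 12 lower and 1 higher at D2, 25 lower at D14 and 42 lower at D16. Without the libraries D2 A and D7 A, 13 were higher at D1, 17 lower at D2, 13 higher and 2 lower at D7, 32 lower at D14 and 46 lower at D16. Equal-total scaling gave 3 higher and 3 lower at D1 and 14 higher and 9 lower at D7. Relative to the median of all genes, the members' median was 0.40 at D7, -0.50 at D14 and -0.64 at D16. Equal-total scaling gave values within 0.01 of these, which is no check, because scaling multiplies all genes of a library alike.

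The largest rise at D7 was that of MRPL33, with 13514, 5815 and 7114 in the cytoplasm, against 3021, 2548 and 2323 at D0 (log2 difference 1.66, SE 0.34, adjusted p = 0.00172). Letter A was high in D7, but B and C also lay above every D0 value. MRPL41, a large-subunit protein without a bacterial counterpart, had 16404, 7301 and 9192 at D7 against 4677, 3659 and 3617 at D0 (1.38), and its call was lost without letter C. MRPL12, whose protein also binds the mitochondrial RNA polymerase, had 6016, 1427 and 2051 at D7 against 1401, 782 and 794 at D0 (1.45). The call of MRPL12 was lost without letter B, without letter C and without the libraries D2 A and D7 A together. The members whose cytoplasmic values ran most like those of MRPL12 over the 18 libraries were MRPL54 (Pearson r = 0.99), MRPL43 (0.97) and MRPL17 (0.96), where the median pair of members had 0.70, and in the heavy pool they were MRPL11 (0.77), MRPL57 (0.75) and MRPL20 (0.75), where the median pair had 0.30. MRPL46 was the only member lower at D7 (349, 577 and 471 against 668, 863 and 778 at D0, -0.74), and it lost its call without letter A or C. At D1 the largest rise was that of MRPL27, with 9073, 7686 and 6088 against 3746, 3383 and 3253 at D0 (1.12). The days did not overlap, and the call was lost without letter B or C.

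Of the members lower at D14 and D16, MRPL24 was already lower in the cytoplasm at D2 (-1.04, a call lost without letter C). It had 3064, 3957 and 2987 at D14 and 3250.3, 3702 and 3014 at D16 in the cytoplasm, against 8048, 6950.4 and 7076 at D0 (-1.15 and -1.15). MRPL11, a protein of the stalk base where elongation factors dock, had 3902, 4505 and 3731 at D14 against 9225, 8135 and 8435 at D0 (-1.09). Both genes had non-overlapping values on these days, and the calls were lost without letter C, for MRPL11 also without letter B. In the heavy pool it had 2061, 2201 and 2186 at D2 against 4326, 4320.0 and 4469 at D0 (-1.02), and at D14 the heavy pool held 4175, 4495 and 4395. The D14 difference in the heavy pool was -0.01 and did not pass the test (0.31, and called, under equal-total scaling), and its association at D14 was 1.08 (adjusted p = 0.0067), a call lost without letter B or C. MRPS24 had the lowest difference of D16, with 142, 156 and 169 at D16, against 466, 426 and 367 at D0 (log2 difference -1.42, SE 0.29, adjusted p = 0.00284). MRPL1, of low GC content (39.1 percent), stands low in letter B: its cytoplasmic RNA was 1849, 426 and 1633 at D14 and 1744, 395 and 1662 at D16 in A, B and C, while the heavy pool of D14 held 1566, 1689.6 and 1511.

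The 3 paralogs of MRPS18, which descend from the bacterial S18 and occupy different places in the ribosome, had these values. MRPS18B had 7056, 7353 and 7092 at D14 against 11468, 12512 and 13541 at D0 in the heavy pool (-0.80). MRPS18A had 4186, 4383 and 4429 against 5195, 5769 and 5529 (-0.34), a call lost under equal-total scaling and without letter B. MRPS18C, the shortest at 142 codons, had 2137, 2483 and 2856 against 2148, 2262 and 2250.3 (0.16, adjusted p = 0.28), and the days overlapped. MRPL3, a large-subunit protein with a bacterial counterpart, had 11374, 11265 and 11647 at D14 against 17333, 17842 and 18815 at D0 (-0.65). MRPL58, a ribosome-bound release factor that frees stalled peptides, had 2441, 2550.3 and 2825 at D16 against 3307, 3517 and 3608 (-0.42; 0.01 and not called under equal-total scaling). MRPS36, which belongs to another complex, had 1174, 1142 and 1070.4 at D14 against 575, 628 and 511 (0.98).

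The large-subunit sum runs over 48 genes and the small-subunit sum over 29, so the number of genes is part of their ratio. Both sums follow the symbols. MRPS30 and MRPS18A, proteins of the large subunit, and MRPS36, of another complex, thus count as small, and the ratio would be higher without them there. The large-subunit sum was the higher one in every library, and the ratio of the 2 sums varied with day and fraction. In the heavy pool the large-to-small ratio was 1.38 ± 0.02 at D0, 1.44 ± 0.034 at D1, 1.64 ± 0.02 at D2, 1.44 ± 0.02 at D7, 1.5 ± 0.011 at D14 and 1.46 ± 0.03 at D16 (SD, n = 3 each). The 3 ratios of D2 (1.62 to 1.66) lay above all other heavy libraries. In the cytoplasm the ratio was 1.62 ± 0.023 at D0, 1.68 ± 0.06 at D1, 1.73 ± 0.078 at D2, 1.7 ± 0.094 at D7, 1.49 ± 0.011 at D14 and 1.48 ± 0.031 at D16. The cytoplasmic libraries D2 A and D7 A had the highest ratios, 1.82 and 1.81, while letters B and C of these days had 1.65 to 1.70. These sums weigh abundant members most, are not corrected for length or for the number of genes, and carry no test. The members' share of all values was highest at D7 in both fractions, 0.796 ± 0.034 percent in the heavy pool and 0.734 ± 0.021 percent in the cytoplasm, against 0.668 ± 0.0087 and 0.686 ± 0.01 percent at D0, and it was lowest in the cytoplasm of D16 (0.497 ± 0.044 percent).

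**Figure D5:**
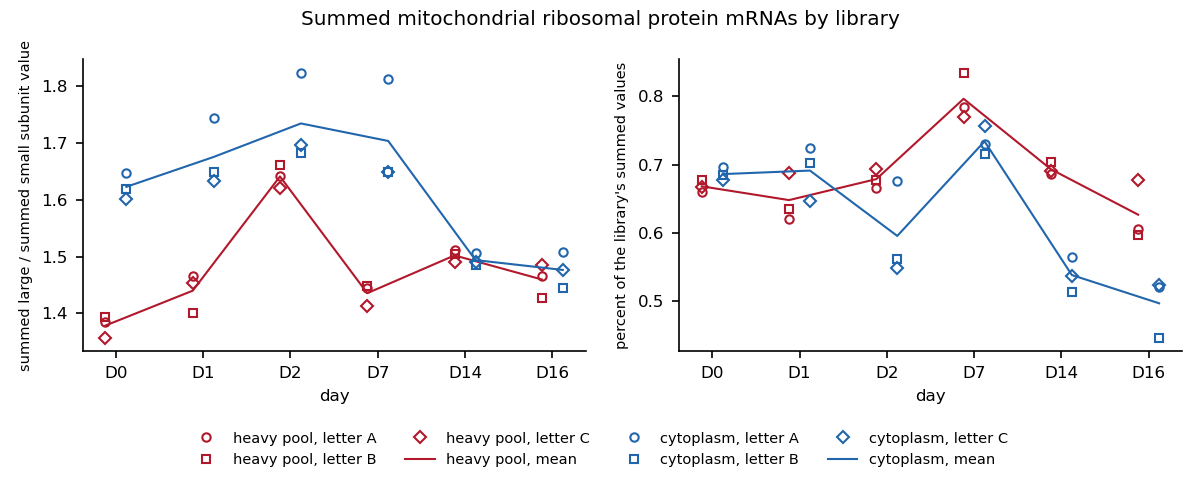
Ratio of the summed large- to the summed small-subunit normalised counts (left) and the members' percent of all summed values (right) in each library on the 6 days, heavy pool in red and cytoplasm in blue, a symbol per letter and lines through the means of 3 libraries. The heavy-pool ratio peaks at D2 and the share of all values peaks at D7 in both fractions; the scales do not start at 0.

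The other genes of mitochondrial translation were set beside the members in the heavy pool at D14, each list with its counts, its median difference and its median coding length. Over all genes, 34.4 percent were higher and 37.6 percent lower, with a median of -0.02. Equal-total scaling moved that median to 0.30. The lists are given with the deposited size factors only, so small differences among them depend on the scaling. Of the proteins of the mitochondrial ribosome without an MRP symbol, 2 of 5 genes were higher and 3 lower (median -0.59; 222 codons): PTCD3, a pentatricopeptide repeat protein of the small subunit, fell by 1.51, and CHCHD1 rose by 0.67. Of the translation factors, 4 of 14 genes were higher and 7 lower (median -0.29; 417 codons), with -1.58 for the elongation factor gene GFM1 and -1.51 for TUFM. Of the mitochondrial aminoacyl-tRNA synthetases, 2 of 19 genes were higher and 16 lower (median -1.19; 528 codons), with -2.22 for LARS2 and -2.22 for IARS2. Of the genes for assembly of the ribosome and modification of its rRNA, 3 of 26 genes were higher and 22 lower (median -0.83; 379 codons), led by the RNA helicase gene DHX30 (-1.94). Of the genes for mitochondrial transcription, DNA replication and RNA stability, 1 of 20 genes were higher and 16 lower (median -0.77; 622.5 codons), with -2.52 for POLRMT, the mitochondrial RNA polymerase, and -1.08 for LRPPRC. TFAM, the factor that packages mitochondrial DNA, was at -0.36. Of the proteases and chaperones, 1 of 11 genes were higher and 10 lower (median -1.05; 679 codons). Of the nuclear-encoded respiratory chain subunits, 47 of 76 genes were higher and 19 lower (median 0.48; 139 codons), and of the cytosolic ribosomal proteins, 71 of 81 genes were higher and 0 lower (median 0.84; 151 codons).

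The RNAs that the mitochondrial ribosome itself translates were set beside these. Of the mitochondrially encoded mRNAs, 13 of 13 were lower in the heavy pool at D14 (median -3.39), against 37.6 percent of all genes. In the cytoplasm 1 of 13 was lower (median 0.16), against 5.05 percent of all genes. These mRNAs are not read by cytosolic ribosomes, and mitochondria had been pelleted before the gradient, so their share measures what remained in the lysate: 0.18 to 0.31 percent of the heavy pool at D14 and 1.4 to 2.13 percent at D0. Its part in the members' values was not tested. Of the regulators of nuclear genes for mitochondrial proteins, 0 of 9 were higher and 8 lower in the heavy pool at D14, with -1.29 for NRF1 and -0.77 for GABPA, and 1 of 9 were higher and 3 lower in the cytoplasm at D7, with -1.32 for NRF1. Over all genes the shares were 34.4 and 37.6 percent in the heavy pool at D14 and 18.3 and 15.7 percent in the cytoplasm at D7. MYC was at -0.42 in the heavy pool at D14 and at 0.51 in the cytoplasm (adjusted p = 0.34).

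The members lie on 21 chromosomes and share features that the choice by name did not use. A protein-coding gene on the opposite strand starts within 1000 bases of the start of 29 of the 77 members (37.7 percent), against 17.9 percent of the 12399 protein-coding genes. In 1 such pair both partners are members: MRPL46 and MRPS11 start 34 bases apart on chromosome 15. In the heavy pool MRPS11 had 2532, 2664 and 2805 at D14 against 2833, 3055 and 3229 at D0 (-0.19, adjusted p = 0.12), beside -1.15 for MRPL46, and equal-total scaling gave 0.13 for MRPS11, not called either. Promoter windows from 250 bases before to 50 bases after the start (RefSeq, GRCh38.p14) were listed for 68 of the 77 members, 84 windows in all. They were searched on both strands for motifs named after factors that act on nuclear genes for mitochondrial proteins. The ETS motif CCGGAAGT, bound by GABPA among others, was in 15.5 percent of the members' windows, 7.31 percent of those of other protein-coding genes in the table and 4.14 percent of all 35116 windows. The NRF1 motif, whose letters are the capitals at base -110 of MRPL36 in its sequence below with any base at the fifth place, was in 11.9, 9.7 and 5.78 percent, and the YY1 motif, whose letters are the capitals of the lines that follow, in 11.9, 1.67 and 0.849 percent. No match overlapped a match to another motif in these windows. A match is a description of the letters only.

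The YY1 letters are where the members' windows stand furthest from the rest, so the match of each of the 10 members that hold it is shown with up to 9 bases on either side, 5′ to 3′ on the gene's strand, with the match in capitals.
MRPL22 (chr5:154941099-154941122, plus strand): ggagggcgaAAGATGGCGGCggca
MRPL36 (chr5:1799856-1799884, minus strand): cccccccccGCCGCCATCTTccttcctgg
MRPL38 (chr17:75904859-75904887, minus strand): gccggagggAAGATGGCGGCgccctggtg
MRPL46 (chr15:88467361-88467389, minus strand): ggagaacgaAAGATGGCGGCgcccgtaag
MRPL50 (chr9:101398576-101398604, minus strand): atctcatcgAAGATGGCGGCgcgatctgt
MRPS10 (chr6:42217833-42217861, minus strand): gggaccggcAAGATGGCGGCgcggacagc
MRPS18A (chr6:43687763-43687791, minus strand): aggtttttgAAGATGGCGGCcctcaaggc
MRPS18B (chr6:30617854-30617882, plus strand): gcgtacgtcAAGATGGCGGCgtctgtatt
MRPS24 (chr7:43869479-43869507, minus strand): gcttggcccAAGATGGCGGCctccgtgtg
MRPS30 (chr5:44808951-44808979, plus strand): tcgcgggcaAAGATGGCGGCggccaggtg
In 9 of the 10 the match lies after the start and its ATG is the annotated start codon of the gene, so the same letters open the coding sequence, and MRPL36 holds it in reverse before the start. The 10 genes do not share a direction: in the heavy pool at D14, 2 were higher and 6 lower (34.4 and 37.6 percent of all genes), from -1.57 (MRPL38) to 1.30 (MRPL36). For the NRF1 motif, the 9 members with a match had a median of 0.66 (145 codons), and the 59 without it -0.33 (205 codons), so motif and length cannot be told apart in these few genes.

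The 250 bases before the start of 3 members are shown because the genes mark both ends of the heavy-pool change and the shared start of a pair. MRPL36 rose, and MRPL38 and MRPL46 fell, the last from the start it shares with MRPS11. Capitals mark matches to the 3 motifs.
MRPL36 (chr5:1799838-1800087, minus strand): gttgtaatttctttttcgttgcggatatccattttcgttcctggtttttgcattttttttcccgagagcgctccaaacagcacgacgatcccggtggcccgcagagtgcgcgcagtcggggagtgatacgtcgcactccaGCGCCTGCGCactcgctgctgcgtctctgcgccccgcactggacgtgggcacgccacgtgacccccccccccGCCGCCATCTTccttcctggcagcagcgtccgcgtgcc
MRPL38 (chr17:75904885-75905134, minus strand): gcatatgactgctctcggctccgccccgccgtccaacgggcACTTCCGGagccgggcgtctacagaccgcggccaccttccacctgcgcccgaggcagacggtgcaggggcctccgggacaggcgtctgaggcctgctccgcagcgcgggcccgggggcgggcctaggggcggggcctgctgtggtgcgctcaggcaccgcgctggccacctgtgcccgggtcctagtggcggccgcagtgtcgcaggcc
MRPL46 (chr15:88467389-88467638, minus strand): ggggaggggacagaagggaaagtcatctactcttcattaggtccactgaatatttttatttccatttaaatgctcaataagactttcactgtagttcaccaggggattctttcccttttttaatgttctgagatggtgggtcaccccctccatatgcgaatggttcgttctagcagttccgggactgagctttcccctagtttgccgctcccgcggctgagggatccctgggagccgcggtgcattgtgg
MRPL36 holds the NRF1 letters at base -110 and the YY1 letters at base -38 from the start, MRPL38 the ETS letters at base -209, and the window of MRPL46 none of the 3 before its start.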

How the data were processed

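RNA from the heavy polysomal pool and from the cytoplasm was sequenced in 36 libraries, 3 per group, after poly(A) selection with a strand-marking kit, per the labels' protocols. The submitters' processing notes name FastQC 0.11.9, cutadapt 3.2, STAR 2.7.9a, GRCh38, featureCounts (Subread 2.0.1) and DESeq2 1.30.1. Whether strand was used in counting is not given in the sources used here. The deposited signal is the authors' gene read count divided by 1 size factor per library, so that all libraries of both fractions share a scale. The worth of 1 read was estimated per library from the values themselves, and values divided by it were whole within 0.01 reads; the read totals are therefore estimates, and they were used for depth only. A further 18 columns of per-library values were not used.

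Differences were fitted with limma 3.58.1 (R 4.3.3, trended variance) on log2(value + 1), within each fraction over all days, and over both fractions for the heavy pool against the cytoplasm and for polysome association. Genes needed a value of at least 10 in at least 3 libraries. P-values are two-sided and adjusted by Benjamini-Hochberg over all genes tested, with calls at adjusted p under 0.05. All 77 members passed the filter. The same fits were run on simulated counts with a known set of genes changed, drawn without the GC- and letter-linked deviations of the real libraries. That run cannot show how the fits behave under such deviations. Letters are given as batches, and a fit with the letter as a block was run beside the main one. Deviations from the group means had a mean correlation of 0.19 between cytoplasmic libraries of the same letter on different days (27 of 45 pairs over 0.1) and of 0.07 in the heavy pool (20 of 45). Alternatives were a pseudocount of 10, no filter, TMM and equal-total scaling, each letter left out, and, added after the data were seen, the cytoplasmic libraries D2 A and D7 A left out and the same checks of the steps between days and of the fractions on the later days (equal totals, block and left-out letters or libraries only) and of MRPL46, MRPL51, MRPL52, MRPL55, MRPL27, MRPS6, MRPS11, MRPS15 and MRPS30 where the text names them outside the rule.

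Members named are the 3 called members with the highest and the 3 with the lowest difference in each comparison that moved the same way in all 3 letters, the 5 highest and 5 lowest per kb, and MRPL12, MRPL41, MRPS18A, MRPS18B, MRPS18C, MRPS12, MRPS27, MRPL11, MRPL3, MRPL58 and MRPS36. The members, these names and the gene lists were chosen with earlier results of these data known. Gene lengths, GC content, coding lengths and overlaps are from GENCODE 29. MRPL53 and the list genes TSFM, GTPBP5, MRM2, VARS2 and PPARGC1A were not analysed here.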

Additional observations from a re-analysis of the deposited data

Results flagged for a closer look

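Of the named members, 9 values stood out because all 3 letters moved one way in the heavy pool and all 3 the other way in the cytoplasm, both against D0. They were looked for among members named for a called change of association, so the association values are a description and no separate test. At D14 the association of MRPS15 was 1.67, that of MRPL36 1.62 and that of MRPL14 1.58. At D16 it was 1.73 for MRPL42, 1.56 for MRPL57 and 1.58 for MRPS15, and the value of MRPL42 rests in part on the low cytoplasmic library D16 B. In these 6 values the heavy pool was called higher than at D0. At D1 the association was -0.96 for MRPL37 and -0.89 for MRPS12, and at D7 it was -0.71 for MRPL45, with the heavy pool called lower than at D0. The cytoplasmic differences had the opposite sign in every letter, but none of the 9 passed the test (limma, adjusted p from 0.058 to 0.55). The 3 values of D1 and D7 lost their calls when any letter was left out and under equal-total scaling.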

How the results depend on the processing

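Of 129 called values of named members, 68 kept their call in every setting run, 50 of 71 in the heavy pool, 2 of 22 in the cytoplasm, 9 of 11 between the fractions at D0 and 7 of 25 in polysome association. The pseudocount of 10 and the absence of a filter changed no call of a named member, and TMM scaling ended 2 and added 2. A count model on recovered reads was planned and not run.

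Equal-total scaling turned the direction of 10 of 242 values run that were called in either fit, to 0.29 for MRPS18A at D2, 0.045, 0.13 and 0.0061 for MRPL58 at D7, D14 and D16, 0.31 and 0.13 for MRPL11 at D14 and D16, 0.13 each for MRPL52 and MRPL55 at D16 and 0.29 for MRPS12 at D14 in the heavy pool, and to 0.54 for the association of MRPL58 at D7. It gave 14 called members in the cytoplasm at D2, 0, 2 and 4 in association at D1, D2 and D7, 34 in the cytoplasm between D7 and D14, 20 in the heavy pool between D14 and D16 and 23 and 6 between the fractions at D14 and D16. With the letter as a replicate block, 8, 13, 25 and 42 members were called in the cytoplasm at D1, D2, D14 and D16 and 8, 2 and 2 in association at D1, D2 and D7, 12 and 35 in the cytoplasmic steps to D2 and D7, and no call of a named member was lost. Without the cytoplasmic libraries D2 A and D7 A, 13, 17, 15, 32 and 46 were called in the cytoplasm at D1, D2, D7, D14 and D16 and 30, 4 and 2 in association at D1, D2 and D7, with 32 in the cytoplasmic step to D2 and 3 and 2 between the fractions at D14 and D16.

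With each letter left out in turn, the called members ranged from 0 to 4, 0 to 9, 1 to 17, 0 to 5 and 1 to 16 in the cytoplasm over the 5 days, from 28 to 37, 48 to 55, 42 to 50, 54 to 59 and 62 to 67 in the heavy pool, from 22 to 32 between the fractions at D0, and 0, 0, 0, 6 to 20 and 8 to 27 in association. The steps to D2, D7 and D14 ranged from 0 to 12, 0 to 20 and 19 to 50 in the cytoplasm, the steps to D7 and D16 from 35 to 56 and 4 to 42 in the heavy pool, and the fractions at D2, D7 and D14 from 20 to 30, 27 to 44 and 0 to 1. The cause was not tested, beyond the smaller number of samples. The larger spread between cytoplasmic libraries limits which differences could be detected there with 3 libraries per group.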
